A study of Homo sapiens with 12 samples.

Results

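The BCL2 family of apoptosis regulators is described here through 10 genes, chosen by gene name, of the 58302 genes listed for each library. They are the pro-survival genes BCL2, BCL2L1 and MCL1, the pore formers BAX and BAK1, and the BH3-only genes BBC3, PMAIP1, BID, BCL2L11 and BAD. RNA was sequenced from 2 human renal carcinoma cell lines, 769-P and ACHN, 48 h after transfection with siRNA against NUF2 (si-NUF2, which the study describes as including a pair of siRNAs) or with a control siRNA (si-NC). NUF2 encodes a part of the Ndc80 complex, which ties spindle microtubules to the kinetochore. Each cell line and siRNA had 3 replicates, which makes 4 groups and 12 libraries, and both lines carry the label of clear cell renal cell carcinoma (ccRCC). Nothing in the labels says that replicates came from separate cultures, so the p-values measure the spread between these libraries, which may be technical. The siRNA was transient, and the labels name no other allele or agent.

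Proteins of this family set whether the outer membrane of the mitochondrion stays closed. BAX and BAK1 form pores in it, which release cytochrome c and start the caspase cascade. BCL2, BCL-XL (the long product of BCL2L1) and MCL1 hold the pore formers in check, and the BH3-only proteins neutralise these guardians or activate the pore formers directly. MCL1 is a short-lived protein that is degraded during a long mitotic arrest, whereas BBC3 (PUMA) and PMAIP1 (NOXA) are known for induction under stress. The values below are mRNA levels of whole genes, so the products of one gene, such as the long and short forms of BCL2L1, are not told apart.

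The promoters of 4 members are shown to set the sequences at the start sites of genes with higher levels after si-NUF2 in 769-P cells (BCL2L1, BAX and PMAIP1) beside those of a gene with lower levels (BAK1). The differences of PMAIP1 and BAK1 did not pass the planned test given further on. BCL2L11, which also had lower levels, is not shown. The 4 promoters were picked with these levels known. They are RefSeq windows on GRCh38.p14, 5′ to 3′ on the strand of the gene, from 250 bases before to 50 bases after the start site. BCL2L1 is at chr20:31723914-31724213 on the reverse strand, BAX at chr19:48954625-48954924 on the forward strand, PMAIP1 at chr18:59899746-59900045 on the forward strand and BAK1 at chr6:33580227-33580526 on the reverse strand. Capitals mark matches on either strand to the E-box CACGTG, the GC box GGGCGG, the CCAAT box CCAAT and the TATA box TATAAA, and none of the marked matches overlap.

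BCL2L1: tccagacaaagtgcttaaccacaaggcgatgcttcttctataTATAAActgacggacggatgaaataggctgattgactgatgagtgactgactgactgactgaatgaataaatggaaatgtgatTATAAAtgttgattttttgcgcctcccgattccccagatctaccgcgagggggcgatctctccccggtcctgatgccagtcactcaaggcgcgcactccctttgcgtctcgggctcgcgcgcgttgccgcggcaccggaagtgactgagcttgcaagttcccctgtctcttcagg

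BAX: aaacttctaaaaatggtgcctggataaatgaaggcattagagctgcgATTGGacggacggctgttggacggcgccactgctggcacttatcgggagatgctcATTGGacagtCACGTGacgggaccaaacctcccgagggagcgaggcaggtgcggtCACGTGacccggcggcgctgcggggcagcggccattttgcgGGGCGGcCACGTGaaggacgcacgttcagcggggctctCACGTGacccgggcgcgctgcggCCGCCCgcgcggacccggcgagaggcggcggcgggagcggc

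PMAIP1: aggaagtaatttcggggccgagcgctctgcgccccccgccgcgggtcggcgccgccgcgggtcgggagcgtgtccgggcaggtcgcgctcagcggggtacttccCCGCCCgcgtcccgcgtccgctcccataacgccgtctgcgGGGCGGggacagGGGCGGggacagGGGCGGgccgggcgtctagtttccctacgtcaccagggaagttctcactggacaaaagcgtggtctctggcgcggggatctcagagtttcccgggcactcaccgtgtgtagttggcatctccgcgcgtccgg

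BAK1: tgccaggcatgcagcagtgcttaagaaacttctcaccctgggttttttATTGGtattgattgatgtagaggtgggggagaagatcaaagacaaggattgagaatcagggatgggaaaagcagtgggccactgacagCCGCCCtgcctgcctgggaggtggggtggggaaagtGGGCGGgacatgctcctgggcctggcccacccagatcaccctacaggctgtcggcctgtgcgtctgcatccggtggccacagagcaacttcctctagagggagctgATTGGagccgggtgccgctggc

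BAX held 4 E-boxes, a motif present in 7.26% of all 35116 RefSeq promoter windows of this length, and 5 of these windows (0.0142%) held at least 4. The BCL2L1 window shown was the only one of the 4 with TATAAA, at positions −125 and −208 from the start site, and 11.5% of all windows held this motif. BCL2L1 has another window in the table, not shown, with a GC box at position −5 and no TATAAA. In the windows shown, the GC box occurred 4 times in PMAIP1, 2 times in BAX and 2 times in BAK1, against 45.0% of all windows with at least 1. BAX and BAK1 each held 2 CCAAT boxes, and 34.6% of all windows held at least 1. Of the 10 members, 9 were in the table, with 15 windows in all, and MCL1 was not. The interferon motif GAAANNGAAA matched BBC3 at 2 overlapping places and 3.57% of all windows. The motifs were chosen after the windows had been read, and a match or its absence says nothing of any factor.

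Levels were deposited as FPKM, which divides the fragments of a gene by its length in kilobases and by the depth of the library. Reads recovered from them summed to between 29156132 and 38662438 per library, with 312 to 15306 reads for a member in a library, and no library was a copy of another of its group. Mitochondrial genes took between 20.1% and 26.9% of the summed FPKM. NUF2 was 3.68 ± 0.602 FPKM (SD, n = 3) with si-NUF2 and 18.3 ± 0.951 with si-NC in 769-P cells, and 3.85 ± 1.53 against 13.8 ± 1.94 in ACHN cells, with no overlap between the groups in either line. All 8 renal epithelial markers were at 0.5 FPKM or more on average in 769-P cells and 7 of the 8 in ACHN cells, CDH6 being the exception. Of 4 clear cell markers, CA9 stayed at or below 0.121 FPKM in all 12 libraries, and only VEGFA in 769-P and VEGFA and NDUFA4L2 in ACHN reached 0.5 FPKM. The 5 leukocyte and 3 endothelial markers summed to at most 0.412 and 0.0877 FPKM in any library, and CD3E was at 0 in all of them. Fibroblast genes summed to at most 0.241 FPKM in 769-P and to between 1.40 and 6.21 FPKM in ACHN cells, nearly all of it from COL1A1 and PDGFRB.

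All 10 members were expressed in both lines and all passed the filter on low values. With si-NC, MCL1 was the most abundant member in both, at 81.3 ± 4.13 FPKM in 769-P and 82.2 ± 12.7 FPKM in ACHN cells (SD, n = 3). In 769-P cells BAX (51.5 FPKM), BAK1 (40.4) and BCL2L1 (27.5) followed, and the ranges of these 4 did not overlap. BAD (14.3 FPKM) and PMAIP1 (13.9), next in order, overlapped with each other, as did BCL2L11 (4.97) and BBC3 (4.77), and BID (10.8) lay between the pairs. BCL2, the gene that gave the family its name, was the lowest at 2.21 FPKM. In ACHN cells MCL1 and BAX (79.0 FPKM) overlapped, as did BCL2L1 (50.2) and PMAIP1 (37.4), and each neighbour from BBC3 (16.3) through BAK1 (10.9), BID (10.3) and BAD (8.07) to BCL2 (5.61). BCL2L11 was the lowest in ACHN cells, at 2.19 FPKM.

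**Figure D1:**
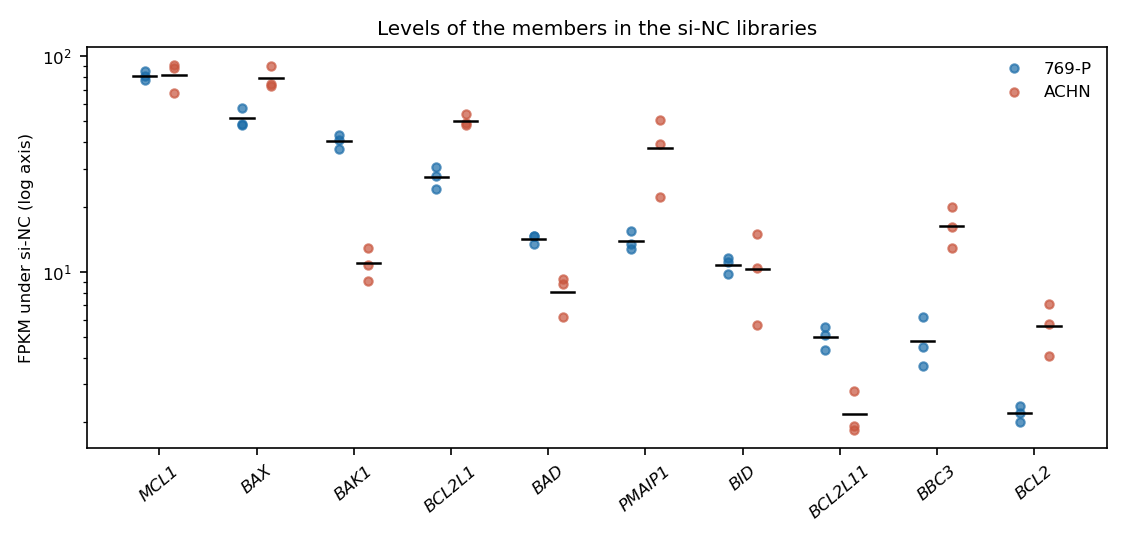
FPKM of each member (log axis) in the 3 si-NC libraries of 769-P (blue) and ACHN (red) cells, with black bars for group means, ordered by the mean in 769-P. MCL1 has means of 81.3 FPKM in 769-P and 82.2 in ACHN, whereas BAK1, at 37.1 to 43.1 FPKM in 769-P, is at 9.08 to 12.95 in ACHN.

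Levels of the family in the lines were compared between the si-NC groups with limma's fit of all 12 libraries. Of all genes tested, 63.4% differed between the lines at an adjusted p under 0.05 (30.6% higher in ACHN and 32.9% lower), and of the members 8 of 10 did, 5 of them higher in ACHN and 3 lower. BBC3 was 1.72 ± 0.232 higher on the log2 scale in ACHN (SE, adjusted p = 7.6e-05), at 12.9, 16.1 and 20.04 FPKM against 3.65, 4.49 and 6.18. PMAIP1 (1.30), BCL2 (1.23), BCL2L1 (0.82) and BAX (0.57) were also higher in ACHN. BAK1 was 1.93 ± 0.134 lower (SE, adjusted p = 4.91e-07), and BCL2L11 (−1.21) and BAD (−0.88) were lower as well. MCL1 differed by −0.04 (95% interval −0.40 to 0.32) and BID by −0.21 (−1.06 to 0.64), neither past the test. All 8 calls kept their direction under each scaling and with each library left out. Upper-quartile scaling put the median difference of all genes at −0.17, against −0.02 with the trimmed mean, and the MCL1 value was just above 0 with median-ratio scaling and with FPKM as deposited.

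As a share of the summed FPKM of the 10 members, pro-survival genes made up 44.1% ± 0.409 of the sum in 769-P and 45.8% ± 5.94 in ACHN cells with si-NC (SD, n = 3), and pore formers 36.5% ± 1.23 and 29.8% ± 3.36. These shares, and the ratios given further on, were computed after the levels had been seen and are descriptions with no test. The 2 pore formers were closer in level in 769-P cells, with a BAX to BAK1 ratio between 1.13 and 1.41, than in ACHN cells, with a ratio between 5.62 and 8.35.

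In 769-P cells, 2 of the 3 pro-survival genes and 1 of the 2 pore formers passed the test of si-NUF2 against si-NC. BCL2L1 and BAX rose and MCL1 fell, so 3 of the 10 members passed the test, against 9.98% of the 14155 genes tested. In RNA of whole cultures, a change in every cell cannot be told apart from one in the share of cells that express a gene. The 2 that rose stand beside 5.26% of all genes and the 1 that fell beside 4.71%. When replicate numbers entered the fit as a block, 6 of the 10 passed, with PMAIP1 added to those that rose and BAK1 and BCL2L11 to those that fell, against 27.5% of all genes (13.6% up and 13.9% down). The levels of the groups did not overlap for the same 6 members, against 33.0% of all genes tested.

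BCL2L1, which encodes BCL-XL, was at 45.4, 42.7 and 44.5 FPKM with si-NUF2 and at 30.5, 27.9 and 24.3 with si-NC in replicates 1, 2 and 3. Every si-NUF2 library lay above every si-NC library. The rise was 0.70 ± 0.096 on the log2 scale (SE, limma adjusted p = 0.0109), or 1.60 times the mean of the controls. With each library left out the call held, at an adjusted p between 0.0125 and 0.0447, and among the alternatives a threshold of 0.01 was the 1 that it missed.

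MCL1, the guardian with the shortest-lived protein of these, was at 67.8, 59.7 and 56.9 FPKM with si-NUF2 and at 85.5, 77.3 and 81.1 with si-NC. Again the groups did not overlap. MCL1 fell by 0.39 on the log2 scale (SE 0.087, limma adjusted p = 0.0361), to 75.6% of the control mean. The call was lost in the fit of all 12 libraries (adjusted p = 0.214), without a filter on low values (0.0862) and without any 1 of the libraries other than replicate 1 of si-NUF2, where the adjusted p was 0.0748 to 0.111, whereas without replicate 1 of si-NUF2 it was 0.0349.

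BCL2 was at 1.75, 2.66 and 1.95 FPKM with si-NUF2 and at 2.01, 2.39 and 2.22 with si-NC. These values overlapped, with a difference of −0.06 (95% interval −0.45 to 0.32). The BCL2L1 to MCL1 ratio of FPKM was 0.2996 to 0.360 with si-NC and 0.669 to 0.781 with si-NUF2 in 769-P cells.

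**Figure D2:**
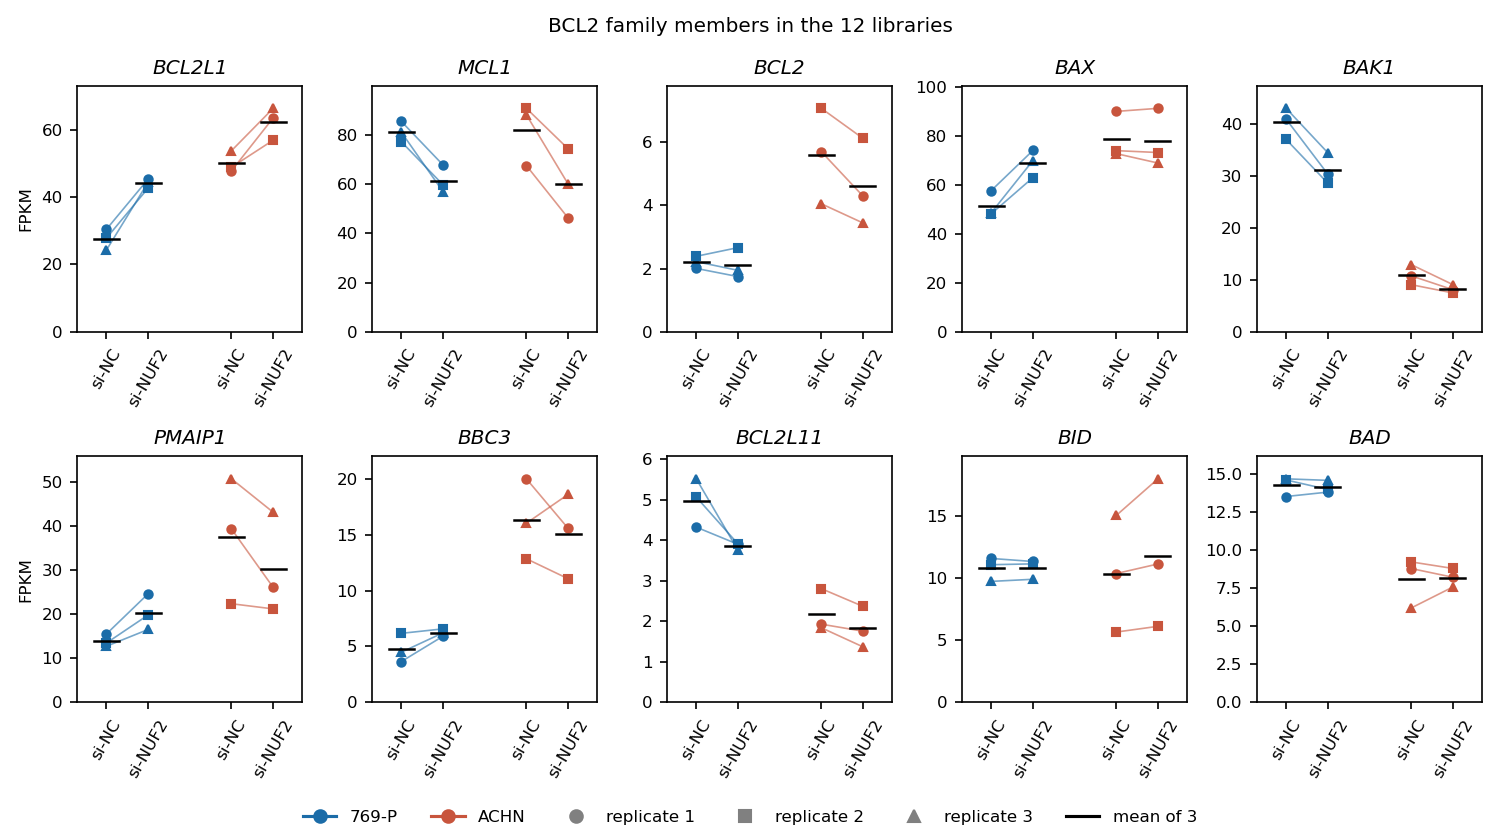
FPKM of the 10 members in each library, si-NC and si-NUF2 side by side for 769-P (blue) and ACHN (red) cells, with marker shapes for replicate numbers, lines between same-numbered replicates and black bars for means of 3. BCL2L1 lies higher with si-NUF2 in every same-numbered pair of both lines, and MCL1, BAK1 and BCL2L11 lie lower.

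BAX, a pore former that waits in the cytosol, was at 74.1, 63.0 and 70.0 FPKM with si-NUF2 and at 57.7, 48.2 and 48.6 with si-NC in 769-P cells. The groups did not overlap, and BAX rose by 0.43 ± 0.102 on the log2 scale (SE, limma adjusted p = 0.0429). The adjusted p was 0.0274 without replicate 1 of si-NC, and without any 1 of the other 5 libraries the call was lost, at 0.0575 to 0.131. It was also lost in the fit of all 12 libraries (adjusted p = 0.0982) and without a filter on low values (0.103).

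BAK1, the pore former that sits in the mitochondrial membrane, was at 30.4, 28.6 and 34.5 FPKM with si-NUF2 and at 41.0, 37.1 and 43.1 with si-NC. All of the si-NUF2 values lay below the control values. The difference of −0.36 ± 0.095 (SE) did not pass the test (limma adjusted p = 0.0576). It did so with the replicate block (0.0083) and with limma-voom on the recovered reads without a block (0.0413). The BAX to BAK1 ratio was 1.13 to 1.41 with si-NC and 2.03 to 2.44 with si-NUF2.

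Among the BH3-only genes of 769-P cells none passed the test of the planned design, which has no block. PMAIP1 was at 24.6, 19.8 and 16.5 FPKM with si-NUF2 and at 15.5, 13.4 and 12.7 with si-NC, higher in each same-numbered pair. Its difference was 0.54 ± 0.155 (SE, limma adjusted p = 0.0715, and 0.0084 with the block). With limma-voom on the recovered reads, without a block, PMAIP1 passed (adjusted p = 0.044).

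BCL2L11 (BIM), which binds all of the guardians, was at 3.90, 3.91 and 3.75 FPKM with si-NUF2 and at 4.32, 5.07 and 5.52 with si-NC, a difference of −0.34 ± 0.102 (SE, limma adjusted p = 0.0798, and 0.046 with the block). The si-NUF2 libraries all lay below the controls. BBC3 was at 5.92, 6.58 and 6.23 FPKM against 3.65, 6.18 and 4.49, with overlap between the groups and a difference of 0.42 ± 0.175 (SE) that passed neither without the block (limma adjusted p = 0.173) nor with it (0.0567).

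BID, which caspase-8 cuts to link death receptors with the mitochondrion, lay between 9.73 and 11.6 FPKM in all 6 libraries of 769-P, and BAD, which phosphorylation by survival kinases holds inactive, between 13.5 and 14.7. Their differences were 0.01 (95% interval −0.22 to 0.24) and 0.00 (−0.16 to 0.15). The BH3-only genes together made up 19.4% ± 1.22 of the summed FPKM of the family with si-NC and 21.0% ± 1.18 with si-NUF2, and the pro-survival genes 44.1% ± 0.409 and 40.9% ± 0.908 (SD, n = 3).

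**Figure D3:**
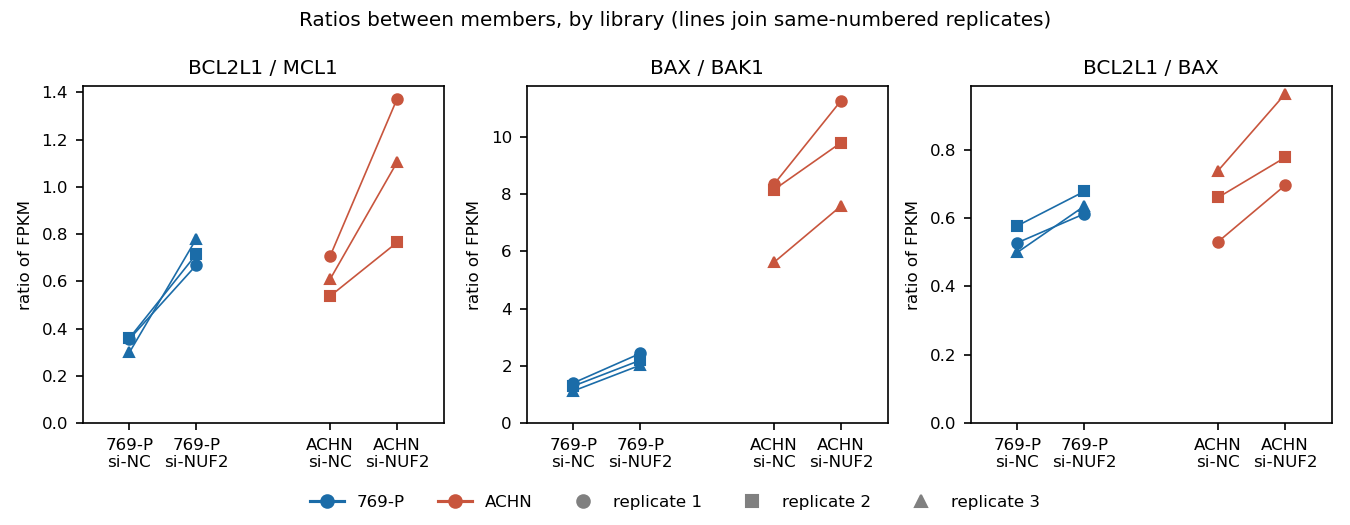
Ratios of FPKM between members in each library, for BCL2L1 over MCL1, BAX over BAK1 and BCL2L1 over BAX, with lines between same-numbered replicates of 769-P (blue) and ACHN (red) cells. All ratios are higher with si-NUF2 in every same-numbered pair, and in 769-P cells the BCL2L1 to MCL1 ratio runs from 0.2996 to 0.360 in the controls and from 0.669 to 0.781 with si-NUF2.

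The genes lie apart in the genome (GENCODE release 29, GRCh38). BCL2 is at chr18:63123346-63320128 (reverse strand), MCL1 at chr1:150574551-150579738 (reverse) and BAX at chr19:48954815-48961798 (forward). BAK1 is at chr6:33572547-33580293 (reverse), BBC3 at chr19:47220822-47232766 (reverse) and PMAIP1 at chr18:59899948-59904306 (forward). BID is at chr22:17734138-17774770 (reverse), BCL2L11 at chr2:111119378-111168447 (forward) and BAD at chr11:64269830-64284704 (reverse).

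Some members share exon bases with other genes. BCL2L1 is at chr20:31664452-31723989 (reverse strand, 4 merged exons of 3314 bases in GENCODE release 29 on GRCh38). It shares 43.0% of its exon bases with ABALON, an antisense gene. Whether the counting used strand is not given in the sources used here, so how reads of the shared bases were assigned is not known. ABALON was at 3.47, 3.27 and 3.69 FPKM with si-NUF2 and at 2.57, 2.02 and 1.53 with si-NC in 769-P cells, a rise of 0.78 ± 0.183 on the log2 scale (SE, limma adjusted p = 0.042). Its level moved with that of BCL2L1, and its part in the result was not tested. BAD shares 23.7% of its exon bases with GPR137 on the opposite strand and BCL2L11 shares 10.9% with MIR4435-2HG. The other 7 members share at most 4.11% with any other gene, and the pseudogene BAK1P1 was at most at 1.42 FPKM.

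In ACHN cells BCL2L1 was higher and MCL1, BAK1 and BCL2L11 were lower with si-NUF2 in every same-numbered pair, as in 769-P cells. BCL2 and PMAIP1 were also lower and BID higher in every pair of ACHN cells. In 769-P cells the pairs of BCL2 and BID were mixed, and PMAIP1 was higher in every pair. The share of all genes with such pairs is not given here. No member passed the test in the fit without the block. That fit called no gene at all (0% of 15116, with 1238 at an unadjusted p below 0.05), and limma-voom called 0 as well. NUF2 itself, at −1.87, did not pass (limma adjusted p = 0.224). It did with the block (0.0122) and in the fit of all 12 libraries without it (0.0109). With the block 3 of the 10 members passed, BCL2L1 higher and MCL1 and BAK1 lower, against 12.2% of all genes (7.14% up and 5.05% down). BCL2L1 was the 1 member whose groups did not overlap, against 14.6% of all genes tested.

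BCL2L1 was at 63.6, 57.0 and 66.4 FPKM with si-NUF2 and at 47.9, 48.9 and 53.8 with si-NC in ACHN cells, with all si-NUF2 values above the controls. The difference was 0.33 ± 0.103 (SE, limma adjusted p = 0.453, and 0.0287 with the block). ABALON was at 4.37, 3.40 and 3.59 FPKM against 3.78, 3.01 and 3.11 in ACHN, a difference of 0.21 that passed neither fit (adjusted p = 0.843, and 0.0859 with the block).

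MCL1 was at 46.3, 74.4 and 60.1 FPKM against 67.6, 90.9 and 88.2. It was lower with si-NUF2 in each same-numbered pair while the groups overlapped, and the difference of −0.44 ± 0.206 (SE) had a limma adjusted p of 0.668, and of 0.0219 with the block. BAK1 was at 8.11, 7.48 and 9.09 FPKM against 10.8, 9.08 and 12.95, a difference of −0.38 ± 0.157 (SE, limma adjusted p = 0.611, and 0.0276 with the block).

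BAX was at 91.4, 73.3 and 69.0 FPKM with si-NUF2 and at 90.1, 74.1 and 72.8 with si-NC in ACHN cells. Each pair was nearly level, with a difference of −0.01 (95% interval −0.37 to 0.35, and −0.12 to 0.10 with the block). PMAIP1 was at 26.0, 21.2 and 43.1 FPKM against 39.3, 22.3 and 50.7, lower in all 3 pairs, with a difference of −0.28 ± 0.379 (SE, limma adjusted p = 0.964, and 0.127 with the block). BCL2 was at 4.30, 6.13 and 3.45 FPKM against 5.71, 7.08 and 4.05, a difference of −0.26 that passed neither without the block (limma adjusted p = 0.94) nor with it (0.0603).

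For BID, same-numbered libraries of ACHN cells lay closer to each other than replicates of a group did. Its levels were 11.1, 6.11 and 18.0 FPKM with si-NUF2 against 10.4, 5.65 and 15.04 with si-NC, so the libraries of replicate 3 were 2.94 and 2.66 times those of replicate 2. BBC3 lay between 11.1 and 20.04 FPKM, BCL2L11 between 1.37 and 2.81 and BAD between 6.19 and 9.22 across the 6 libraries, and none of these passed the test with or without the block. The BCL2L1 to MCL1 ratio was 0.538 to 0.708 with si-NC and 0.766 to 1.37 with si-NUF2, and the BAX to BAK1 ratio 5.62 to 8.35 and 7.59 to 11.3.

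**Figure D4:**
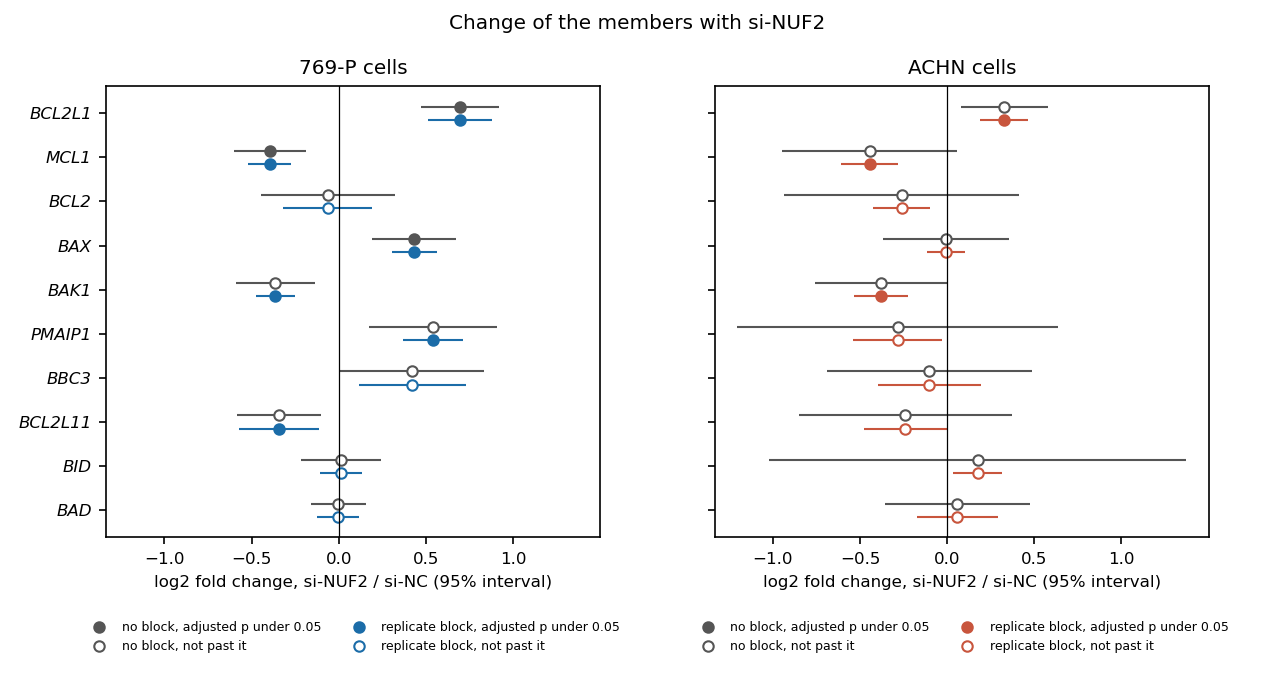
Log2 fold change of each member, si-NUF2 over si-NC, with 95% intervals, in 769-P and ACHN cells, without the replicate block (grey) and with it (coloured), filled where the adjusted p is under 0.05. BCL2L1 and BID lie right of 0 in both lines, and MCL1, BAK1, BCL2L11 and BCL2 lie left of it, with BID and BCL2 near 0 in 769-P. BAX, PMAIP1 and BBC3 lie right of 0 in 769-P alone, and the grey intervals are wider in ACHN.

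To ask whether the lines responded differently, the fold change in ACHN minus that in 769-P was tested over the 12 libraries together. Without the block no gene and no member passed (0% of 16564, with 776 at an unadjusted p below 0.05, and 0 with limma-voom), the BCL2L1 difference in 769-P being larger by 0.36 with an adjusted p of 0.99. With the replicate number of each line as a block, 2 of the 10 members passed, against 1.52% of all genes. The BAX response was lower in ACHN than in 769-P cells by 0.44 ± 0.060 on the log2 scale (SE, adjusted p = 0.0368) and that of PMAIP1 by 0.82 ± 0.139 (SE, adjusted p = 0.0497, next to the threshold). The responses of MCL1 and BAK1 differed by −0.04 (95% interval with the block −0.25 to 0.16) and −0.01 (−0.18 to 0.16). BCL2L1, at −0.36 (−0.59 to −0.14), did not pass with the block either (adjusted p = 0.109).

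Across the 12 libraries, centred within each line, the genes most like BCL2L1 in pattern were AUP1, TRIOBP and BMS1, with a Pearson r of 0.99 for each among 12930 genes. For MCL1 they were APOOL (0.99), UBFD1 (0.98) and ZNF106 (0.97), and for BAX APBB1IP (0.96), ASTN2 and NOP10 (0.94 each). Among the members the highest r were between BCL2 and BCL2L11 (0.77) and between PMAIP1 and BID (0.76), and the lowest between BCL2 and BID (−0.83). These points share libraries and depth, and the r carry no test. Centring within a line left the difference between si-NUF2 and si-NC in the values. BCL2L1, MCL1 and BAX were taken for their low p for that difference in 769-P cells. Centring did not equalise the spread of the lines, so the line with the wider spread weighs more. For BID the SD was 5.96 FPKM (si-NUF2) and 4.69 (si-NC) in ACHN, against 0.778 and 0.955 in 769-P cells.

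The counts of the lists that follow stand beside 9.98% of all genes called in 769-P cells, 27.5% with the block, and 0% and 12.2% in ACHN cells. Of 13 further genes of the BCL2 family 8 were tested in 769-P cells, and only BCL2L13, which resides in the mitochondrial outer membrane, passed. Its si-NUF2 libraries held 13.4, 12.9 and 13.8 FPKM and its si-NC libraries 9.66, 9.16 and 8.93, a rise of 0.54 ± 0.072 (SE, limma adjusted p = 0.0103), and it passed with each library left out. The median of the list was 0.15, beside −0.01 over all genes tested. With the block BCL2L12 (−0.41), BNIP3 (−0.36) and BMF (−0.88), a BH3-only gene at 1.01 ± 0.648 FPKM with si-NUF2 and 2.01 ± 1.34 with si-NC (SD, n = 3), passed too, and in ACHN cells none of 8 passed with or without the block.

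Downstream of the pore, 4 of 14 genes of the apoptosome, caspases and mitochondrial factors passed in 769-P cells, 1 up and 3 down (median −0.09). VDAC1, a channel of the outer membrane, fell by 0.38 (SE 0.094, limma adjusted p = 0.0485), from 212 ± 12.5 to 162 ± 17.2 FPKM, and HTRA2, a protease set free with cytochrome c, by 0.32 (SE 0.071, adjusted p = 0.0369), from 9.55 ± 0.236 to 7.59 ± 0.317 FPKM (SD, n = 3). Leaving out 1 library took away the calls of VDAC1 (5 of 6 libraries, adjusted p up to 0.143) and HTRA2 (each of 6, 0.0651 to 0.12). With the block CYCS, which encodes cytochrome c, was higher (0.20) and the nuclease gene ENDOG lower (−0.33) in 769-P as well. In ACHN cells none of the 14 passed without the block, and with it CYCS was higher (0.45) and APAF1, the scaffold of the apoptosome, lower (−0.53).

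Of 7 inhibitors of apoptosis 5 were tested, and 3 passed in 769-P cells (median −0.06). BIRC3 fell by 1.63 (SE 0.268, limma adjusted p = 0.0165), from 12.6, 18.7 and 23.7 FPKM with si-NC to 4.45, 7.74 and 5.17 with si-NUF2. XIAP, which binds caspases directly, fell by 0.40 (adjusted p = 0.0492), from 11.1 ± 1.12 to 8.31 ± 0.676 FPKM, and BIRC5 (survivin), which also serves in the chromosomal passenger complex of mitosis, rose by 0.57 ± 0.129 (SE, adjusted p = 0.0396), from 28.1 ± 3.35 to 41.4 ± 5.59 FPKM (SD, n = 3). The calls were lost without 1 of 3 libraries for BIRC3 (replicate 3 of si-NUF2, replicates 2 and 3 of si-NC, adjusted p up to 0.0646) and without any 1 but replicate 1 of si-NC for XIAP (up to 0.153) and BIRC5 (up to 0.112). With the block the same 3 genes passed in ACHN cells in the same directions, at −0.73 for BIRC3, −0.33 for XIAP and 0.56 for BIRC5 (adjusted p = 0.0352, 0.0298 and 0.0122), and without it none did. The BIRC3 value in ACHN cells rests on which libraries are in the fit: without the block it ran from −1.51 without replicate 2 of si-NC to 0.25 without replicate 2 of si-NUF2.

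In the death receptor arm, which reaches the family through BID, 1 of 11 genes passed in 769-P cells (median −0.05), a share near the 9.98% of all genes. With the block 3 of 11 passed in 769-P and 2 of 11 in ACHN cells, against 27.5% and 12.2% of all genes. TRADD, an adaptor of the TNF receptor, was at 6.33, 6.20 and 6.002 FPKM with si-NUF2 and at 8.99, 9.39 and 8.72 with si-NC, and fell by 0.53 (SE 0.071, limma adjusted p = 0.0103). With the block TNFRSF1A (−0.45), its receptor, and TNFRSF10B (0.19), a receptor for TRAIL, passed as well in 769-P, and TRADD (−0.43, adjusted p = 0.0167) and TNFRSF1A (−0.28) in ACHN cells.

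Of 9 genes that govern MCL1 turnover none passed in either line without the block, with a median of 0.01 in 769-P cells and of 0.17 in ACHN. With it SKP1 was lower in 769-P (−0.36), and CDC20 and UBE2C were higher in ACHN (0.20 each). Of 14 transcription factors upstream of the family, 12 were tested in 769-P, 11 were in ACHN cells, and none passed without the block (medians −0.09 and −0.04). With it NFKB1 (−0.26), FOXO3 (−0.27) and FOXO1 (−0.48) were lower in 769-P, and E2F1 was higher (0.81) and FOXO3 lower (−0.32) in ACHN cells.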

How the data were processed

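Total RNA of 769-P and ACHN cells was sequenced at Novogene on an Illumina instrument 48 h after transfection. Reads were filtered with fastp by the authors, and their processing notes name HISAT2 2.0.5, featureCounts 1.5.0-p3 and hg38. The annotation, strand setting and FPKM formula are not given in the sources used here. The authors deposited a table of FPKM for each library, and nothing else was used.

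The members and gene lists were chosen with earlier results of these data known. All 10 members and NUF2 are named, and from each other list the genes past the threshold without the block in either line, up to 6 by size of change. Genes called with the block alone were added after their values were seen. Some genes of these lists stay in the counts and medians and are not reported here by name. Likeness was ranked for the 3 members with the lowest p in 769-P. FPKM were scaled by a trimmed mean of log ratios (30% of log ratios and 5% of levels trimmed), and log2(FPKM + 0.1) was fitted with limma 3.58.1 (lmFit, eBayes with trend) in R 4.3.3 for genes with at least 0.5 scaled FPKM in at least 3 libraries of the fit. Fold changes are on this scale, which understates those of low genes. Each line was fitted alone without a block, Benjamini-Hochberg adjustment ran over all genes tested, and calls were at an adjusted p under 0.05. The interaction and the contrast of lines came from 1 fit of all 12 libraries. A two-sided exact permutation test of 3 against 3 libraries cannot go below 0.1, the value it gave for the 6 members without overlap in 769-P and for BCL2L1 in ACHN cells.

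The replicate numbers come from the labels, which do not say what they mark. Deviations from the group means correlated at 0.19 to 0.359 between same-numbered libraries in 769-P and at 0.46 to 0.735 in ACHN cells, so the fit with the replicate block is given beside each result it changes. Low FPKM times the GENCODE release 29 exon length gave whole reads (within 0.02) for at least 96.2% of the values under 200 reads of each library, and 35208 genes (97.0% of those above 0) served for depth and limma-voom. The deposited names of 27 genes had turned into dates and were restored by identifier. The fits within a line were also run on simulated data, with changes larger than the si-NUF2 changes of the members. The rates from that run are not reported here and do not cover changes of the members' size. The alternatives were other scalings, pseudocounts of 1 and 0.01, no filter or a filter of 1, an adjusted p under 0.01, the block, all 12 libraries in 1 fit, limma-voom and each library left out. Figures were drawn with Python 3.11.15 and matplotlib 3.10.9.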

Additional observations from a re-analysis of the deposited data

Results flagged for a closer look

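Responses that differed between the cell lines were found for 2 members, in the fit of all 12 libraries with the replicate block. For BAX the ACHN response minus the 769-P response was −0.44 on the log2 scale (adjusted p = 0.0368). BAX was higher with si-NUF2 in 3 of 3 same-numbered pairs of 769-P and in 1 of 3 pairs of ACHN cells. For PMAIP1 it was −0.82 (adjusted p = 0.0497), with si-NUF2 higher in 3 of 3 pairs of 769-P and lower in 3 of 3 pairs of ACHN cells. Without the block the adjusted p was 1.00 for both, and what sets the replicates of ACHN cells apart was not tested.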

How the results depend on the processing

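In 769-P cells 1412 genes and 3 members were called. The replicate block gave 3898 genes and 6 members, all 12 libraries in 1 fit 700 and 1, and that fit with the block, added after the data were seen, 4552 and 6. An adjusted p under 0.01 gave 160 and 0, and no filter on low values 635 and 1. With limma-voom it was 1870 of 13920 genes and 5 members. Without 1 library, 357 (si-NUF2 3) to 1144 (si-NC 1) genes and 1 to 3 members were called, with 365 (si-NC 2), 450 (si-NC 3), 566 (si-NUF2 2) and 685 (si-NUF2 1) in between. In ACHN cells, with 0 called, the block gave 1843 genes and 3 members, all 12 libraries 171 and 0, and both together 2490 and 3, and every other setting 0. For the difference between the responses, 0 by the planned design, the block gave 251 genes and 2 members, no filter 15 genes, a pseudocount of 0.01 gave 2, and leaving out 1 library 0 to 1 (769-P si-NUF2 2). The contrast of the lines called 8 members in every setting. The causes of these shifts were not tested, and the fits without 1 library hold fewer samples.

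Values that turned sign were of genes that the planned design did not call in the same comparison. BIRC3 in ACHN cells was among them, and was called with the block. Over the libraries left out, BCL2 ran from −0.228 to 0.0541, BID from −0.0637 to 0.0723 and BAD from −0.0354 to 0.0146 in 769-P cells. In ACHN cells BAX ran from −0.135 to 0.0916, BBC3 from −0.27 to 0.11, BID from −0.20 to 0.58, BAD from −0.12 to 0.17, HTRA2 from −0.16 to 0.0032 and BIRC3 from −1.51 to 0.25. The response difference ran from −0.22 to 0.13 for MCL1, −0.15 to 0.10 for BAK1, −0.22 to 0.56 for BID, −0.10 to 0.29 for BCL2L11 and −0.13 to 0.16 for BAD, and the line contrast from −0.112 to 0.0923 for MCL1 and −0.52 to 0.17 for BID. BAX was at 0.0048 in ACHN cells with upper-quartile scaling, the BAK1 response difference at 0.0131 with a pseudocount of 1, and the MCL1 line contrast at 0.0025 with median-ratio scaling and 0.0050 with FPKM as deposited.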
